A study of Mus musculus with 3 samples.

Results

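The gelsolin family was followed through the dendritic cells of a mouse tumour at single-cell resolution. The family proteins carry repeats of 1 shared fold. Gelsolin (Gsn) severs actin filaments when calcium rises and caps their fast-growing ends, and it is made both as a cytoplasmic protein and as a secreted plasma protein that clears actin spilled by dying cells. Scinderin (Scin) severs filaments too, Capg caps them without severing, Flii joins gelsolin repeats to leucine-rich repeats, and supervillin (Svil) ties actin and myosin II to membranes. Conventional type 1 dendritic cells (cDC1s) carry DNGR-1, the product of Clec9a, which binds the filamentous actin exposed by dead cells, and secreted gelsolin hinders that binding. The members are these 5 genes, taken by name, of 32285 genes in the count matrices, and all 5 were detected.

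The data are 3 droplet scRNAseq libraries, 1 for each genotype and none repeated. Each library pooled cells that had been sorted as pre-cDCs, cDC1s and cDC2s. They came from the transplantable mouse fibrosarcoma MCA205 LA-OVA, which carries the model antigen OVA, 5 days after injection into mice aged 6 to 20 weeks. The WT pool drew on 25 males and 12 females. The sGSN-/- pool, which lacks secreted gelsolin, drew on 15 males and 16 females. The sGSN-/-Clec9a-/- pool, which lacks DNGR-1 as well, drew on 10 males and 17 females. Values given in threes below follow the order WT, sGSN-/- and sGSN-/-Clec9a-/-.

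Levels are counts of unique molecular identifiers (UMIs, 1 for each captured transcript) given as CPM, which scales the UMIs of a gene to all UMIs of the summed cells, with the SD over the 3 libraries where a mean is given (n = 3). The libraries held 176578136, 109270958 and 113411930 UMIs in 12763, 8173 and 9273 barcodes. A deposited table assigns 5806 of these barcodes to cDC1s in 12 clusters, with 32676177, 23563047 and 21473550 UMIs. All barcodes that passed the filters, 28855 with the deposited cDC1s among them, were clustered together anew, leaving out the family and other actin genes. The clusters were named from marker genes, and the classes below hold only their cells among the 24403 barcodes outside the table. Between 26 and 28 barcodes were shared by any pair of libraries, and 2 or 3 of them were among the cDC1s. Over all barcodes Gsn gave 82935 UMIs, Scin 1513, Capg 97002, Flii 18984 and Svil 15727, of which 12518, 711, 630, 3697 and 1311 lay in the deposited cDC1s.

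Gsn, the targeted locus, was read in every library. In the deposited cDC1s it stood at 152, 169 and 167 CPM, so that both libraries from mice without secreted gelsolin lay slightly above the WT library. The ratio of the sGSN-/- to the WT library was 1.12, with an exact 95% counting interval of 1.07 to 1.17, and the ratio of the sGSN-/-Clec9a-/- to the sGSN-/- library was 0.983 (0.94 to 1.03). These UMIs are counted per gene and take in both the cytoplasmic and the secreted transcripts, so that the level does not check the sGSN-/- label. Clec9a, by contrast, checked the double genotype: it stood at 168, 168 and 0.0931 CPM in the cDC1s, with 2 UMIs left in the sGSN-/-Clec9a-/- library against 5502 and 3970 in the others. Xcr1, a chemokine receptor that marks cDC1s, stood at 205, 223 and 233 CPM in the same cells.

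The gene model shows why. On GRCm38, Gsn spans chr2:35256380-35307892 on the plus strand. The transcript Gsn-205, with 18 exons and 2193 coding bases, starts at the upstream end and gives the cytoplasmic protein. The transcript Gsn-201, with 17 exons and 2340 coding bases, starts 26000 bases downstream and carries 147 coding bases that Gsn-205 lacks, and it encodes the longer, secreted protein. Of their exons 15 are identical, and the pair share 2429 exonic bases, against 178 bases found only in Gsn-205 and 224 found only in Gsn-201. Within the final 500 bases of the transcripts, 498 are common to both. The gene Gm43128 also overlaps Gsn on the same strand.

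**Figure D1:**
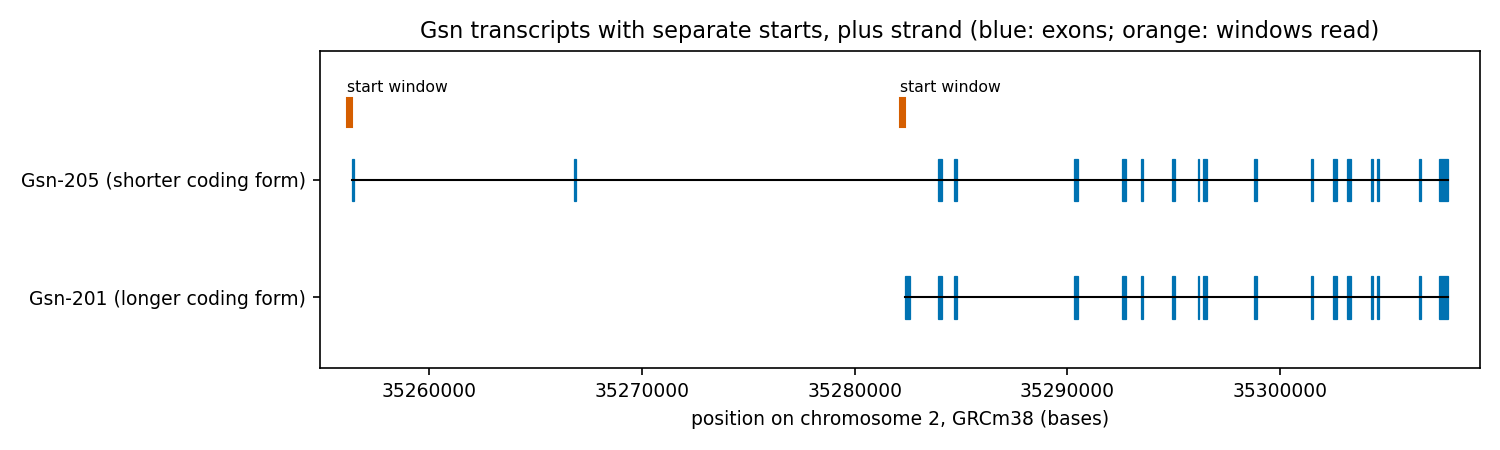
Exons of the Gsn transcripts Gsn-205 and Gsn-201 (blue boxes) and the windows before the RefSeq starts (orange) along chromosome 2 of GRCm38, in bases. The starts lie 26000 bases apart and 15 exons are identical.

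The stretches before the RefSeq starts are shown because the secreted and cytoplasmic forms start at separate places, together with that of Scin, the member whose level differed most among cDC1 clusters. RefSeq promoter entries on GRCm38.p6 exist for 4 of the 5 members, 6 entries in all, of which 3 belong to Gsn. The third of these, chr2:35266494-35266743, lies between the others, held 0 matches to the motifs searched and is not printed. The printed Gsn windows are chr2:35256109-35256358 before the upstream start and chr2:35282130-35282379 before the downstream start, both on the plus strand, and the Scin window is chr12:40134229-40134478 on the minus strand. Each is the 250 bases before a start in RefSeq, which for the upstream window ends at 35256358, slightly before the start of Gsn-205 at 35256380. They are written 5′ to 3′, with matches to a searched motif in capitals.
Gsn upstream start: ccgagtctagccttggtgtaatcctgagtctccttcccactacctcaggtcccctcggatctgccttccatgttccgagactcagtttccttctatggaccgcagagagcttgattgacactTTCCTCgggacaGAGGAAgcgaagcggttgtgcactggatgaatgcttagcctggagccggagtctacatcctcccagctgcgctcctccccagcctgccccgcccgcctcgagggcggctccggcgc
Gsn downstream start: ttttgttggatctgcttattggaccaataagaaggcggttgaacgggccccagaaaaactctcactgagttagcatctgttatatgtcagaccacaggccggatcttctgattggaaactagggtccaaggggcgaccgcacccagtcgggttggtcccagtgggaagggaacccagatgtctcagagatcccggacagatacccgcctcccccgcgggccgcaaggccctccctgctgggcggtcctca
Scin: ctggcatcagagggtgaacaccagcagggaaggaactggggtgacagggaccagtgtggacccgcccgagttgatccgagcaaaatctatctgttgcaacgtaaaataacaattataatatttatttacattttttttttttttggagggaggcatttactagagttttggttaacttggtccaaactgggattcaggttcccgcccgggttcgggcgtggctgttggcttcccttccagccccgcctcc

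Both strands were searched for GAGGAA (the core bound by PU.1), an ETS and IRF composite (GGAA and GAAA with any 2 letters between), an interferon response core (GAAA and GAAA with any 2 letters between), the NF-kB site and the CArG box of serum response factor. The Gsn upstream window held 2 matches to GAGGAA, 1 on each strand, and the Gsn downstream and Scin windows held 0 matches to any of the 5 motifs. Among 32851 promoter windows of the same length, 23.3% held GAGGAA, 2.3% the ETS and IRF composite, 2.98% the interferon response core, 7.25% the NF-kB site and 1.47% the CArG box. No matched base belonged to 2 motifs. A match describes letters only, and a window without one says nothing about the factor.

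Across genotypes the other members can be set side by side, with counting error only and no replicate check. Scin in the deposited cDC1s stood at 8.42, 12.1 and 6.99 CPM, highest in the sGSN-/- library. Its ratio of sGSN-/- to WT was 1.44 (1.22 to 1.71), and that of sGSN-/-Clec9a-/- to sGSN-/- was 0.576 (0.469 to 0.704). Cluster 8, the cluster with most Scin, held 84, 114 and 57 cells in the 3 libraries, and with the 12 clusters weighted equally the Scin ratios were 0.927 and 0.986, so that the first turned direction and the second lay near 1. That weighting gives cluster 8 most of the sum, and with cluster 8 left out the ratios kept their direction, at 1.24 and 0.679. Capg stood at 8.87, 5.98 and 9.27 CPM, lowest in the sGSN-/- library, with ratios of 0.674 (0.547 to 0.827) and 1.55 (1.24 to 1.94). With each cell thinned to 3900 UMIs the first Capg ratio was 1.04, on the other side of 1, and without doublets the ratios were 0.735 and 1.27. The 9 monocyte or macrophage markers in the same cells summed to 90.7, 53.2 and 69.6 CPM, lowest in the sGSN-/- library as well, with 3 at 10 CPM or more, Apoe at 24.3 CPM and none at 0, and their part in the Capg ratios was not tested.

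Flii and Svil differed less. Flii stood at 48.2, 49.3 and 44.8 CPM in the cDC1s, with a ratio of sGSN-/- to WT of 1.02 (0.948 to 1.11). Svil stood at 18.1, 17.4 and 14.4 CPM, lowest in the sGSN-/-Clec9a-/- library, where its ratio to the sGSN-/- library was 0.83 (0.714 to 0.964). For scale, 3.95% of 6634 genes at 10 CPM or more lay past 1.25-fold between the sGSN-/- and WT cDC1s, and 6.37% of 6591 genes did so between the sGSN-/-Clec9a-/- and sGSN-/- cDC1s. Of the members, Scin and Capg lay past 1.25-fold in both contrasts, while Gsn, Flii and Svil lay within it. Capg was below 10 CPM in every library, so that it lies outside the genes counted here. Scin reached 10 CPM in the sGSN-/- library only. With the clusters weighted equally, the Svil ratio of sGSN-/-Clec9a-/- to sGSN-/- was 0.661, past 1.25-fold.

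Within the cDC1s, Gsn was present throughout and lowest in cluster 8. Its mean level ran from 217 ± 20.2 CPM in cluster 1 and 193 ± 1.86 in cluster 6 to 133 ± 11.2 in cluster 4 and 87.4 ± 19.1 in cluster 8. The neighbours 1 and 6, 6 and 9, and 4 and 8 in that order lay apart by more than their SDs, while the clusters from 9 (163 ± 24.2) through 2, 7, 5, 0, 10, 3 and 11 to 4 overlapped step by step. A Gsn UMI was found in 78.7% of the cDC1s at a median of 13501 UMIs per cell. Among NK cell-like barcodes, which stood at 7.34, 5.99 and 6.95 CPM of Gsn, it was found in 4.79% (139 of 2902) at a median of 6858.5.

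Scin, unlike Gsn, was concentrated in 1 cluster. It stood at 150, 142 and 161 CPM in cluster 8 and at 3.79, 4.71 and 3.20 CPM in the cDC1s outside it, so that all 3 libraries were high in cluster 8 and the groups did not overlap. After cluster 8 (151 ± 9.34) came cluster 11 (11.9 ± 11.5) and cluster 1 (10.2 ± 1.38), whose SDs overlapped. Cluster 9 had 1 Scin UMI and cluster 10 had 0. Of the 711 Scin UMIs in the deposited cDC1s, 419 lay in the 255 cells of cluster 8.

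Capg was low in cDC1s apart from cluster 4. It stood at 36.9, 20.3 and 43.6 CPM in cluster 4 (33.6 ± 12), against 6.48, 4.64 and 6.19 CPM in the cDC1s outside it. Cluster 8 came next at 12.4 ± 1.87 CPM, and the remaining clusters lay between 4.32 and 8.52 CPM with overlapping SDs. Flii ran from 73.9 ± 8.32 CPM in cluster 6 to 37.0 ± 2.51 in cluster 1, which lay apart by more than their SDs, while every neighbouring pair of clusters in the order overlapped. Svil was lowest in cluster 8, at 6.50 ± 1.19 CPM, below cluster 10 at 10.1 ± 0.486, and stood at 24.7 ± 2.39 in cluster 6. Cluster 11 gave the highest Flii (85.3 ± 41.2) and Svil (64.2 ± 27.9), but it holds 60 cells with a median of 2348 UMIs. The paper describes this cluster as rich in mitochondrial transcripts and as likely made of dying cells.

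**Figure D2:**
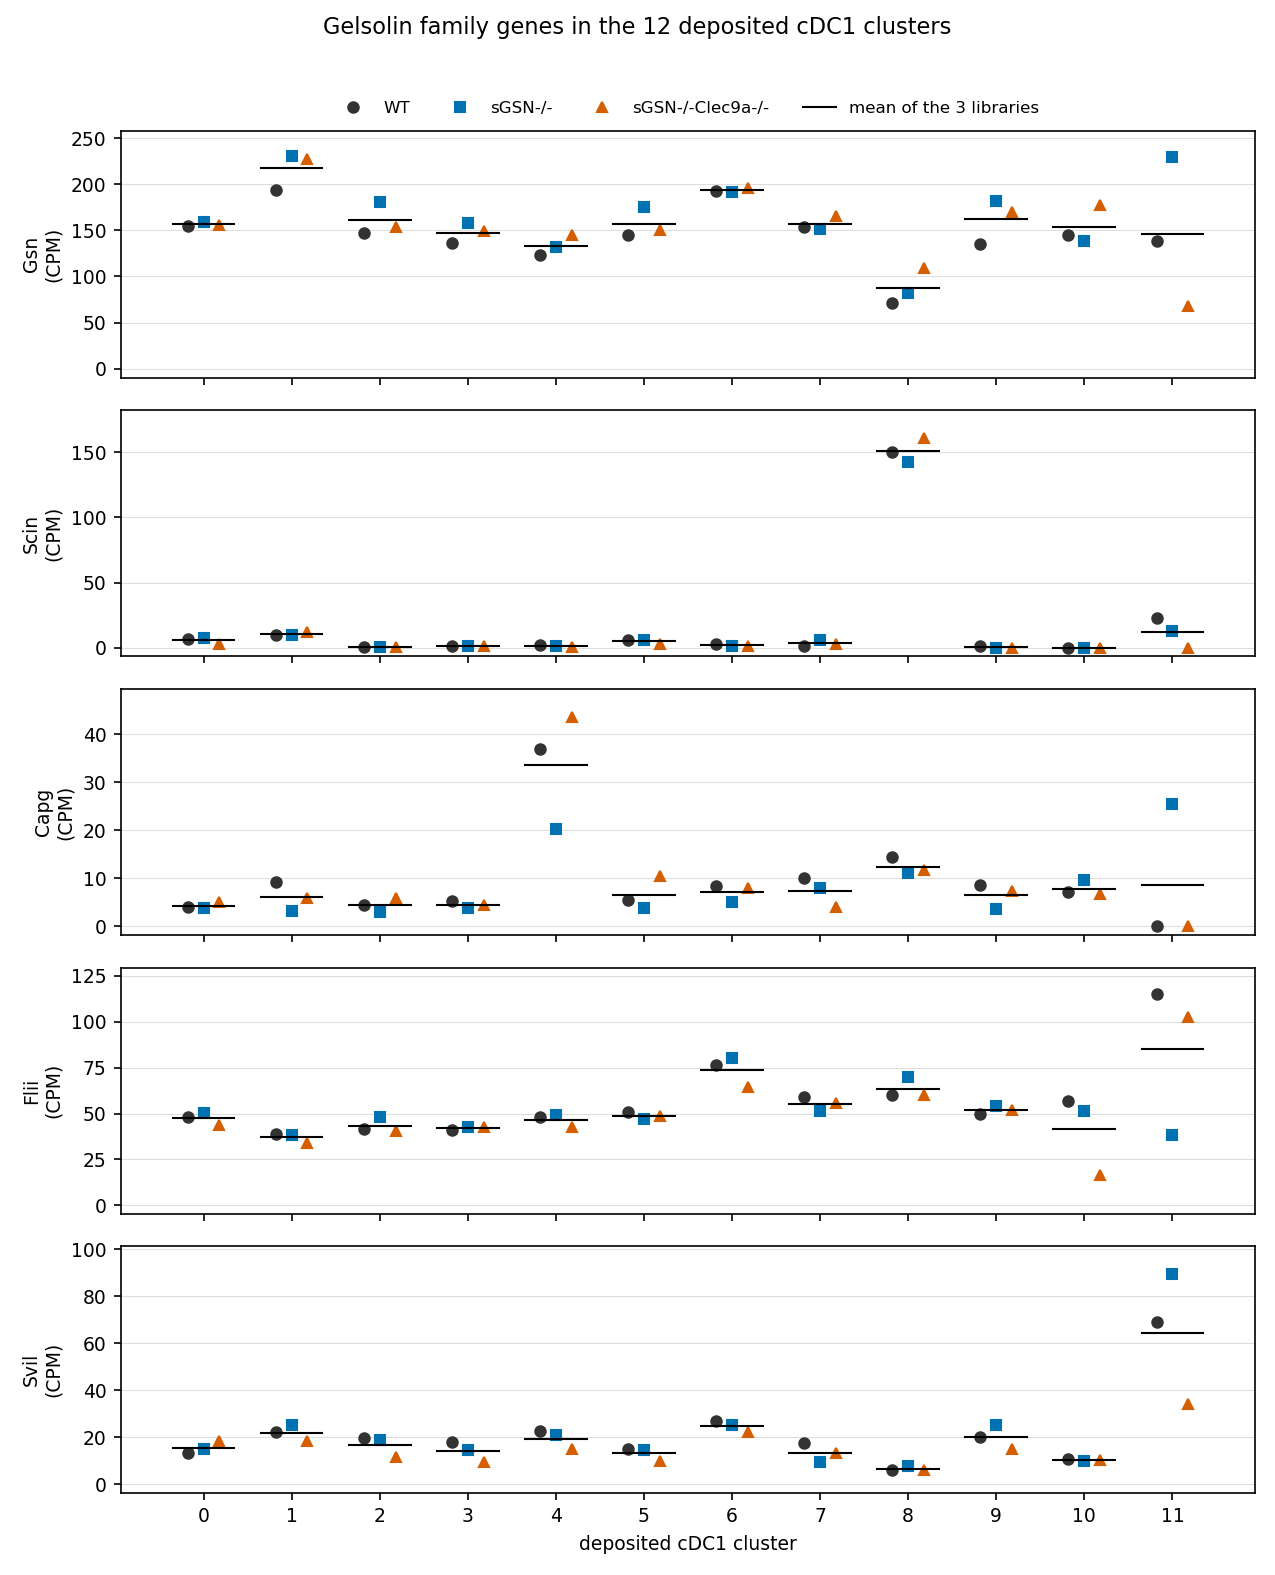
Level of each member, in CPM, in the 12 deposited cDC1 clusters. Each point is 1 library, the bar is the mean of 3 libraries, and each panel has its own scale. Scin stood at 151 CPM in cluster 8 and at 11.9 or less elsewhere, whereas Gsn was lowest in cluster 8.

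Other genes of the family were detected too. Villin-like (Vill) gave 792 UMIs in the deposited cDC1s, at 9.79, 10.8 and 10.2 CPM, advillin (Avil) 95 and villin (Vil1) 29. For the likeness of pattern, Pearson's r was taken over the 12 cluster means of log2(CPM + 5) among 6773 genes, as a description of clusters that share the same libraries. Nearest to Scin were Lactb (r = 0.952), AW112010 (0.95) and Ramp3 (0.939), and nearest to Gsn were Ap1b1 (0.873), Sdha (0.868) and Actr3 (0.863). Capg was most like Cd7 (0.926), a surface gene of precursors, then Zeb2 (0.888) and Msrb1 (0.861). Flii was most like Snx4 (0.962), Dync1h1 (0.96) and Iqgap1 (0.94), and Svil most like Nf2 (0.977), Pnpla7 (0.973) and Bach2 (0.968). Flii and Svil were highest in cluster 11 on 11 UMIs each, and without that cluster, a check chosen after seeing the data, their r lay between 0.895 and 0.948 for these genes.

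Cluster 8 is the cluster of Ccr7 and Fscn1, genes of activated, migrating dendritic cells, and 4 of the 5 members differed there. Scin, a severing protein, was higher by 5.42 on the log2 scale and Flii by 0.62, whereas Gsn was lower by -0.81 and Svil by -1.18. Gsn stood at 71.7, 81.9 and 109 CPM in cluster 8 against 154, 174 and 168 CPM in the other cDC1s. Each of the 3 libraries was lower in cluster 8 and the groups did not overlap. Svil stood at 5.81, 7.87 and 5.82 CPM against 18.5, 17.9 and 14.6 CPM, on 19 UMIs in cluster 8, again with no overlap. Flii stood at 60.1, 70.1 and 60.2 CPM against 47.8, 48.1 and 44.4, all 3 libraries higher.

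Sums per library were tested with edgeR's quasi-likelihood test and Benjamini-Hochberg adjustment over all genes. The clusters were called on the same cells, so that each p describes how alike the libraries are. Here 41.7% of 10964 genes passed (21.3% higher and 20.4% lower, 2331 and 2238 genes), and of the 5 members 2 were higher, 2 lower and 1 not called, a share above that background but from few genes. Scin passed at an adjusted p of 9.4e-13 (SE 0.14), higher in 3 of 3 libraries. Gsn passed at 0.00032 (SE 0.14) and Svil at 0.0037 (SE 0.28), each lower in 3 of 3 libraries. Flii passed at 0.00066 (SE 0.12), higher in 3 of 3. Capg, at 14.5, 11 and 11.6 CPM against 8.69, 5.70 and 9.21, differed by 0.82 (SE 0.35) in 3 of 3 libraries and was not called at 0.079.

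Which calls held in cluster 8 varied by member. Svil was not called without the WT library (-1.01, adjusted p = 0.065), and Capg was called without the sGSN-/-Clec9a-/- library (0.95, 0.0403), with the library as a block (0.89, 0.029), by DESeq2 (0.84, 0.039), without doublets (0.96, 0.023) and in thinned cells (1.35, 0.0496). In thinned cells neither Flii (0.28, 0.4) nor Svil (-1.28, 0.093) was called. Without the sGSN-/- library 2989 genes passed, and without scaling factors 1898 were higher and 3036 lower, with the median of all genes shifted by -0.162. Cluster 8 carried other cell types' markers unevenly: the 9 monocyte or macrophage genes summed to 613, 60.6 and 75.7 CPM, with 5 of 9 at 10 CPM or more, Apoe most abundant at 103 CPM and none at 0, and their part in these results was not tested.

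Scin in cluster 8 was spread unevenly over cells. A Scin UMI was found in 91 of 255 cells, 35.7% (exact 95% interval 29.8 to 41.9%), at a median depth of 10867 UMIs, and in 27.3% of the cells thinned to 3900 UMIs. Among NK cell-like barcodes it was found in 0.586% (17 of 2902) at a median of 6858.5, with 71 UMIs in those 17, so that these barcodes are no measure of stray UMIs alone. The highest cell carried 26 Scin UMIs, and 29 cells with 5 or more held 65.2% of the cluster's Scin. Barcodes scored as doublets held 3.82% of it. Gsn was found in 30.8% of the cluster 8 cells with Scin (28 of 91) and in 35.4% of those without (58 of 164), shares whose intervals overlap.

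Gsn and Scin went opposite ways within the cluster too, in a split chosen after seeing the data and not tested. In the 110 cells with both a Ccr7 and a Fscn1 UMI, Gsn stood at 41.8, 36.3 and 31.7 CPM, against 103, 120 and 126 CPM in the other 145 cells. Scin stood at 262, 249 and 370 CPM in the former and at 33.6, 53.5 and 114 CPM in the latter. Neither gene's groups overlapped, though the third Gsn value rests on 3 UMIs in 14 cells (exact 95% interval 6.55 to 92.8 CPM). When all 114 cDC1s with Ccr7 and Fscn1 stood in for cluster 8, Gsn was lower by -2.00 (adjusted p = 2.8e-08) and Svil was no longer called (-0.76, 0.14).

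The lists of actin genes in cluster 8 were counted beside the 41.7% of all genes called there, with no test of a list. Among 9 bundling and crosslinking genes 5 were higher, 0 lower and 4 not called, with a median of 0.89 against -0.09 over all genes. Fscn1, which bundles filaments in the processes of mature dendritic cells, stood at 1080, 874 and 470 CPM against 0.758, 0.538 and 0.0954 CPM, higher by 10.81, though it is also a marker of such cells. Actn1, an actin crosslinker, stood at 141, 138 and 85.4 CPM against 7.46, 10.1 and 8.11, higher by 4.07. Of 5 monomer and carrier genes tested 4 were higher and 1 lower (median 0.48), and of 4 myosin II genes 3 were higher and 1 lower (median 0.80). Among 20 severing, capping and turnover genes 7 were higher and 4 lower (median 0.11), the lowest being the monomer-binding Twf2 (-1.31) and the turnover factor Gmfg (-1.14). Of 2 Flii-binding genes 1 was higher (median 0.10). Gc, the plasma actin scavenger, gave 0 UMIs in any barcode.

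Cluster 10, the activated cluster of the chemokine genes Cxcl9 and Cxcl10, gave no Scin UMI, where the level outside cluster 8 would give few. Its 76 cells gave 0 Scin UMIs in each library. With 3 counts over the cluster as the floor, Scin was at least 2.75-fold lower than in the other cDC1s, and at least 1.17-fold lower than in the cDC1s outside clusters 8 and 10, whose 3.95 CPM lies close to the floor of 3.37 CPM. Gsn stood at 145, 139 and 177 CPM in cluster 10, within the range of the other clusters, and differed by -0.15 (adjusted p = 0.63). Flii differed by -0.27, Capg by -0.11 and Svil by -0.80 (adjusted p = 0.28).

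In edgeR's test 7.5% of 10635 genes passed in cluster 10 (3.74% higher and 3.76% lower) and 0 of the 5 members did, so that the members lie at or below a low background. At an unadjusted p under 0.05, 2201 genes lay there, and DESeq2 called 1071. Scin had an adjusted p of 0.084 in edgeR (0.0537 with the library as a block) and was called by DESeq2 (0.015) and without the filter on low counts (0.0013). Against the cDC1s outside cluster 8 its adjusted p was 0.14, a comparison chosen after seeing the data. The count fell to 357, 318 and 334 genes without the WT, sGSN-/- and sGSN-/-Clec9a-/- library, and Flii (0.06) and Capg (0.08) turned direction without the last of these, Capg (0.06) also without the first. Capg turned without doublets too (0.10), and Gsn (0.13), Capg (0.18) and Flii (0.20) turned when the 198 cDC1s with Cxcl9 and Cxcl10 but no Ccr7 stood in for the cluster. The 6 cDC2 markers summed to 138, 509 and 107 CPM in cluster 10, with 2 at 10 CPM or more, Cd209a at 210 CPM and none at 0, against 60.9, 59.2 and 58.8 CPM in all cDC1s. The 6 activation markers summed to 521, 48.3 and 73.6 CPM, with 4 at 10 CPM or more, Ccl22 at 141 CPM, and Fscn1 and Cacnb3 at 0, and the part of these cells was not tested. DESeq2 split its calls into 715 higher and 356 lower where edgeR gave 398 and 400. With the Cxcl9 and Cxcl10 cells the split was 533 higher and 98 lower, and in thinned cells 187 and 299.

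Of the actin lists, 2 genes were called in cluster 10. None of the 20 severing, 5 monomer or 4 myosin II genes tested was called, with medians of -0.15, 0.10 and -0.17 against -0.12 over all genes. Of 9 bundling genes 1 was higher, the leukocyte bundling protein Lcp1 (0.43, adjusted p = 0.0402, 3 of 3 libraries), a call lost with the library as a block (0.42, 0.0593), without the WT (0.32, 0.26), sGSN-/- (0.42, 0.25) or sGSN-/-Clec9a-/- (0.52, 0.0582) library, in thinned cells (0.22, 0.43) and with the Cxcl9 and Cxcl10 cells (0.27, 0.077). Of 2 Flii-binding genes (median -0.46) Lrrfip2 was lower (-0.60, adjusted p = 0.05, 3 of 3 libraries), a call lost with the block (-0.60, 0.12), by DESeq2 (-0.54, 0.1), without scaling factors (-0.53, 0.11) or doublets (-0.58, 0.06) and with the Cxcl9 and Cxcl10 cells (-0.31, 0.28). It was also lost without the WT (-0.57, 0.21), sGSN-/- (-0.57, 0.23) or sGSN-/-Clec9a-/- (-0.68, 0.18) library. Fscn1 gave 0 UMIs in cluster 10, at least 9.68-fold below the other cDC1s. Of the 2503 UMIs in those, 2465 lie in cluster 8, so that the bound says nothing of the remaining cDC1s, and the list's median of -0.13 was the same with Fscn1 at that bound.

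Set directly against each other, cluster 8 had the Scin and cluster 10 had more Gsn, with the part of the cDC2 markers of cluster 10 not tested. Scin at 150, 142 and 161 CPM in cluster 8 against 0 UMIs in cluster 10 was at least 44.2-fold higher (adjusted p = 8.3e-07, 3 of 3 libraries). Gsn at 71.7, 81.9 and 109 CPM against 145, 139 and 177 CPM was lower in 3 of 3 libraries, by -0.68 (SE 0.23, adjusted p = 0.031). Flii differed by 0.79 (adjusted p = 0.066), and Capg and Svil were too low to be tested. Of 4229 genes 35% passed (18.8% higher and 16.2% lower), and of the 3 members tested 1 was higher, 1 lower and 1 not called.

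The Gsn call between these clusters was lost without the WT (-0.60, 0.16) or sGSN-/- (-0.68, 0.13) library, by DESeq2 (0.067), without the filter (-0.56, 0.097) and in thinned cells (-0.70, 0.068), while Flii was called without the filter (0.91, 0.026). The count of genes was 950 without the WT and 939 without the sGSN-/- library, and without scaling factors the split was 624 higher and 972 lower, with the median shifted by -0.172. Among bundling genes 4 of 8 tested were higher and 0 lower (median 0.79, the same with Fscn1 at its bound). Fscn1 was at least 259.9-fold higher in cluster 8, and Actn1 was higher by 4.33 on 6 UMIs in cluster 10. Of the 18 severing genes tested 4 were higher and 3 lower (median 0.15), with Gmfg at -1.29, and of 5 monomer genes 3 were higher and 1 lower (median 0.41), with Tmsb10, which sequesters monomers, at -0.90. All 3 myosin II genes that passed, of 4, were higher (median 0.56), and 1 of 2 Flii-binding genes was (median 0.49), where the median over all genes was 0.01.

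In cluster 7, another of the activated clusters, Flii was the member that stood out. It was at 58.8, 51.6 and 55.9 CPM against 47.4, 49.1 and 43.8 CPM in the other cDC1s. All 3 libraries were higher, with no overlap, by 0.37 (SE 0.09, adjusted p = 0.01). Scin, at 0.877, 6.16 and 2.85 CPM against 8.98, 12.7 and 7.35 CPM, was lower in 3 of 3 libraries and again without overlap (-1.44, SE 0.44, adjusted p = 0.0441). Gsn (0.07), Capg (0.03) and Svil (-0.21) were not called. Here 14.8% of 10825 genes passed (10.3% higher and 4.53% lower), and of 5 members 1 was higher, 1 lower and 3 not called.

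Scin's lower level in cluster 7 rested on cluster 8. With cluster 8 left out of the other cDC1s, a comparison chosen after seeing the data, the difference was -0.15 (adjusted p = 0.87). The call was also lost without the WT (-0.99, 0.23) or sGSN-/-Clec9a-/- (-1.52, 0.093) library, without doublets (-1.43, 0.0533) and in thinned cells (-1.36, 0.16). Flii was not called without the WT (0.33, 0.12) or sGSN-/-Clec9a-/- (0.33, 0.088) library, without scaling factors (0.25, 0.096) or in thinned cells (0.29, 0.35), and without scaling factors Gsn (-0.05) and Capg (-0.09) turned direction. Capg turned without the filter (-0.01) and without the WT (-0.21) or sGSN-/- (-0.20) library, and Svil without the sGSN-/- library (0.04). The count of genes was 909 without the WT and 974 without the sGSN-/- library, and its split of 1113 higher and 490 lower became 799 and 1043 without scaling factors, with the median shifted by -0.122.

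Among the actin lists in cluster 7, 3 of 5 monomer genes were higher and 0 lower (median 0.27), among them Actb, the main cytoplasmic actin (0.40, adjusted p = 0.072 without the sGSN-/- library). Capza2, a subunit of capping protein, was the highest of 20 severing and capping genes (0.58), of which 3 were higher and 2 lower (median 0.06). Of 9 bundling genes 0 were higher and 3 lower (median -0.15). Fscn1 gave 3 UMIs in cluster 7, a ratio of 0.014 to the other cDC1s (0.00288 to 0.0409), but of 0.959 (0.189 to 3.04) to those outside cluster 8. Its call was lost without the WT library (0.0511), and that of Actn1 (-1.40) was lost without the sGSN-/- library (-0.88, 0.069) and with cluster 8 left out (-0.79, 0.1). No myosin II gene of 4 and no Flii-binding gene of 2 was called (medians 0.11 and 0.00, against -0.03 over all genes).

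Cluster 9, also counted among the activated clusters, differed from the other cDC1s in few members. Scin gave 1 UMI there, 0.44 CPM over the cluster against 9.41, a ratio of 0.0468 (0.00118 to 0.261), and it was called as lower by edgeR (adjusted p = 0.0096, 3 of 3 libraries). Against the cDC1s outside cluster 8, chosen after seeing the data, the ratio was 0.11 (0.00277 to 0.617) and the adjusted p was 0.0483. Gsn (-0.02), Capg (-0.20), Flii (0.13) and Svil (0.26) were not called. Of 10861 genes 8.05% passed (4.44% higher and 3.61% lower), and of the 5 members 0 were higher and 1 lower, within what that share gives for few genes. Scin was not called without the WT library (0.079) or in thinned cells (0.069), and Gsn turned direction without the WT library (0.06). The count was 342, 510 and 509 genes without the WT, sGSN-/- and sGSN-/-Clec9a-/- library.

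Of 9 bundling genes 3 were higher and 1 lower in cluster 9 (median 0.22, the same with Fscn1 at its bound). Marcksl1, which tethers filaments at the membrane, stood at 563, 436 and 409 CPM against 98.7, 86.2 and 73.8 CPM, higher by 2.46, and its relative Marcks was higher by 0.85. Fscn1 gave 0 UMIs there, at least 25.1-fold below the other cDC1s, but the cDC1s outside cluster 8 were under the floor too. Its call (0.0448) was lost without the WT (0.23) or sGSN-/- (0.0507) library and in thinned cells (0.067). Tmsb10 was lower (-0.48, adjusted p = 0.02), a call lost without the sGSN-/- (-0.42, 0.099) or sGSN-/-Clec9a-/- (-0.49, 0.08) library, as 1 of 5 monomer genes (median -0.08). None of 20 severing, 4 myosin II or 2 Flii-binding genes was called (medians -0.06, -0.13 and -0.13, against -0.03 over all genes).

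Early cDC1s (clusters 4 and 1) and resting cDC1s (clusters 0, 2, 3, 5 and 6) were compared for the course of maturation. In the early cDC1s Capg was higher by 1.70, Scin by 1.16, Svil by 0.41 and Gsn by 0.24, and Flii was lower by -0.23. Capg stood at 19.6, 9.16 and 19.7 CPM in early and at 5.02, 3.72 and 6.28 CPM in resting cDC1s. The groups did not overlap, though the sGSN-/- library was lowest in both. Scin stood at 6.69, 6.40 and 7.68 CPM in early and at 3.31, 4.01 and 1.87 CPM in resting cDC1s, again with no overlap. Gsn stood at 167, 196 and 197 CPM against 151, 169 and 158 CPM, and here the groups overlapped. The higher Gsn and Scin came from cluster 1 alone, since both genes were lower in cluster 4 than in the resting cDC1s.

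In this comparison 38.5% of 10696 genes passed edgeR's test (19.1% higher and 19.4% lower), and all 5 members did, 4 higher and 1 lower, above the background but with small differences for 3 of them. Capg passed at an adjusted p of 0.00014 (SE 0.26) and Scin at 0.0016 (SE 0.24), each higher in 3 of 3 libraries. Svil passed at 0.011, Flii at 0.015 and Gsn at 0.031, each in its direction in 3 of 3 libraries. Gsn was not called without the sGSN-/- (0.24, 0.13) or sGSN-/-Clec9a-/- (0.19, 0.1) library or in thinned cells (0.08, 0.52). Flii was not called without the WT (0.062), sGSN-/- (0.077) or sGSN-/-Clec9a-/- (0.085) library, by DESeq2 (0.094) or in thinned cells (0.092), nor Svil without the WT (0.44, 0.0599) or sGSN-/- (0.33, 0.12) library or in thinned cells (0.39, 0.11). Without the WT library 2579 genes passed.

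The early clusters differed from each other in which member they held. Scin was at 9.53, 9.28 and 11.8 CPM in cluster 1 and at 1.94, 0.993 and 0.567 CPM in cluster 4, on 8 UMIs. Gsn was at 194, 230 and 227 CPM in cluster 1, the highest of all clusters, and at 123, 132 and 145 CPM in cluster 4, below every library of the resting cDC1s. Cluster 4 alone was not tested against them. Capg, by contrast, belonged to cluster 4: with cluster 1 alone as the early group it differed by 0.37 (adjusted p = 0.37). In cluster 4 a Capg UMI was found in 19.9% of cells (102 of 512) at a median of 11172 UMIs, against 7.20% of the cDC1s outside it at a median of 13741. Its 213 UMIs were unevenly spread, as 13 cells with 5 or more held 41.3% of them. Barcodes scored as doublets made up 9.96% of the cluster's cells and held 34.7% of its Capg, and without doublets the early difference was 1.36 (adjusted p = 0.00036).

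Markers of neighbouring cell types were read in cluster 4 too. Over its libraries the monocyte or macrophage and the cDC2 sums had the order of Capg, and the pre-cDC sum did not. The monocyte or macrophage genes summed to 168, 104 and 201 CPM there, against 60.0, 44.2 and 49.3 CPM in cluster 0, with 5 of 9 at 10 CPM or more, Apoe most abundant at 35.9 CPM and none at 0. The sGSN-/- library was lowest for these genes and for Capg. The 6 cDC2 genes summed to 328, 260 and 342 CPM, with 5 at 10 CPM or more and Cd209a at 183 CPM, and the 4 pre-cDC genes to 329, 323 and 265 CPM, all at 10 CPM or more, with Flt3 at 107 CPM. None of these was at 0, and their part in the Capg result was not tested.

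The remaining actin genes were called about as often as the 38.5% of all genes in this comparison. Of 20 severing genes 4 were higher and 4 lower (median -0.05 against -0.01 over all genes), with the turnover factor Gmfg at 0.57 and the capping protein Eps8 at -1.03. Of 8 bundling genes tested 1 was higher, Actn1 at 1.96, and 4 lower, with Marcksl1 at -1.13 (median -0.22). Of 5 monomer genes 1 was higher (median 0.10), and 1 of 4 myosin II genes (median 0.06) and 1 of 2 Flii-binding genes (median 0.24) were higher as well. Vill was lower in the early cDC1s by -0.92 (adjusted p = 0.00028, 3 of 3 libraries).

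Outside the deposited cDC1s, Capg marked most other cells. It stood at 8.04 ± 1.79 CPM in the cDC1s, the lowest of 16 classes, and at 590 ± 18.7 CPM in unnamed barcodes led by Retnla and Lpl, 503 ± 27.2 in monocyte- or macrophage-like barcodes led by Apoe and Ms4a7, 298 ± 22.4 in cDC2-like, 181 ± 14.1 in NK cell-like and 172 ± 19.1 in pre-cDC-like barcodes. The first of these lay above its neighbour by more than the SDs, and from plasmacytoid-like (213 ± 24.2) to activated cDC-like barcodes (152 ± 22.2) the classes overlapped step by step. Below them lay cDC1-like (19.6 ± 12.1 CPM) and cycling cDC1-like barcodes (13.5 ± 2.61), so that Capg was low in cDC1s outside the table too. A Capg UMI was found in 46.3% of NK cell-like barcodes at a median of 6858.5 UMIs and in 8.32% of the deposited cDC1s at 13501. Gsn ran from 395 ± 19.4 CPM in the monocyte- or macrophage-like barcodes led by Hspb1 and Mmp12 and 354 ± 24.4 in cDC2-like barcodes, which overlapped, through 162 ± 9.60 in the cDC1s to 35.1 ± 1.91 in cycling and 6.76 ± 0.696 in other NK cell-like barcodes.

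Outside the table the highest mean of Scin was in activated cDC-like barcodes, which overlapped unnamed barcodes led by Mcpt4 and Tpsb2 (42.4 ± 50.4 CPM on 10 UMIs). The 212 activated cDC-like barcodes had 57.7, 63.8 and 20.4 CPM of Scin, above every other named class in mean (47.3 ± 23.5), with the lowest value in the library that gave 27 of these barcodes. They carried 6 of 6 activation markers (Ccr7 at 2004 CPM) together with 6 of 6 cDC2 markers (553, 578 and 554 CPM) and 9 of 9 monocyte or macrophage markers (1266, 1429 and 1858 CPM, Apoe at 764), so that they are not cDC1s alone, and the part of these cells in the Scin level was not tested. Flii lay between 30.2 and 63.3 CPM in all 16 classes, with neighbours overlapping except at 1 step. Svil was highest in the barcodes led by Retnla and Lpl (90.6 ± 10.6 CPM). Its lowest mean was in the deposited cDC1s (16.6 ± 1.94), which overlapped cycling cDC1-like barcodes (18.3 ± 3.65).

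**Figure D3:**
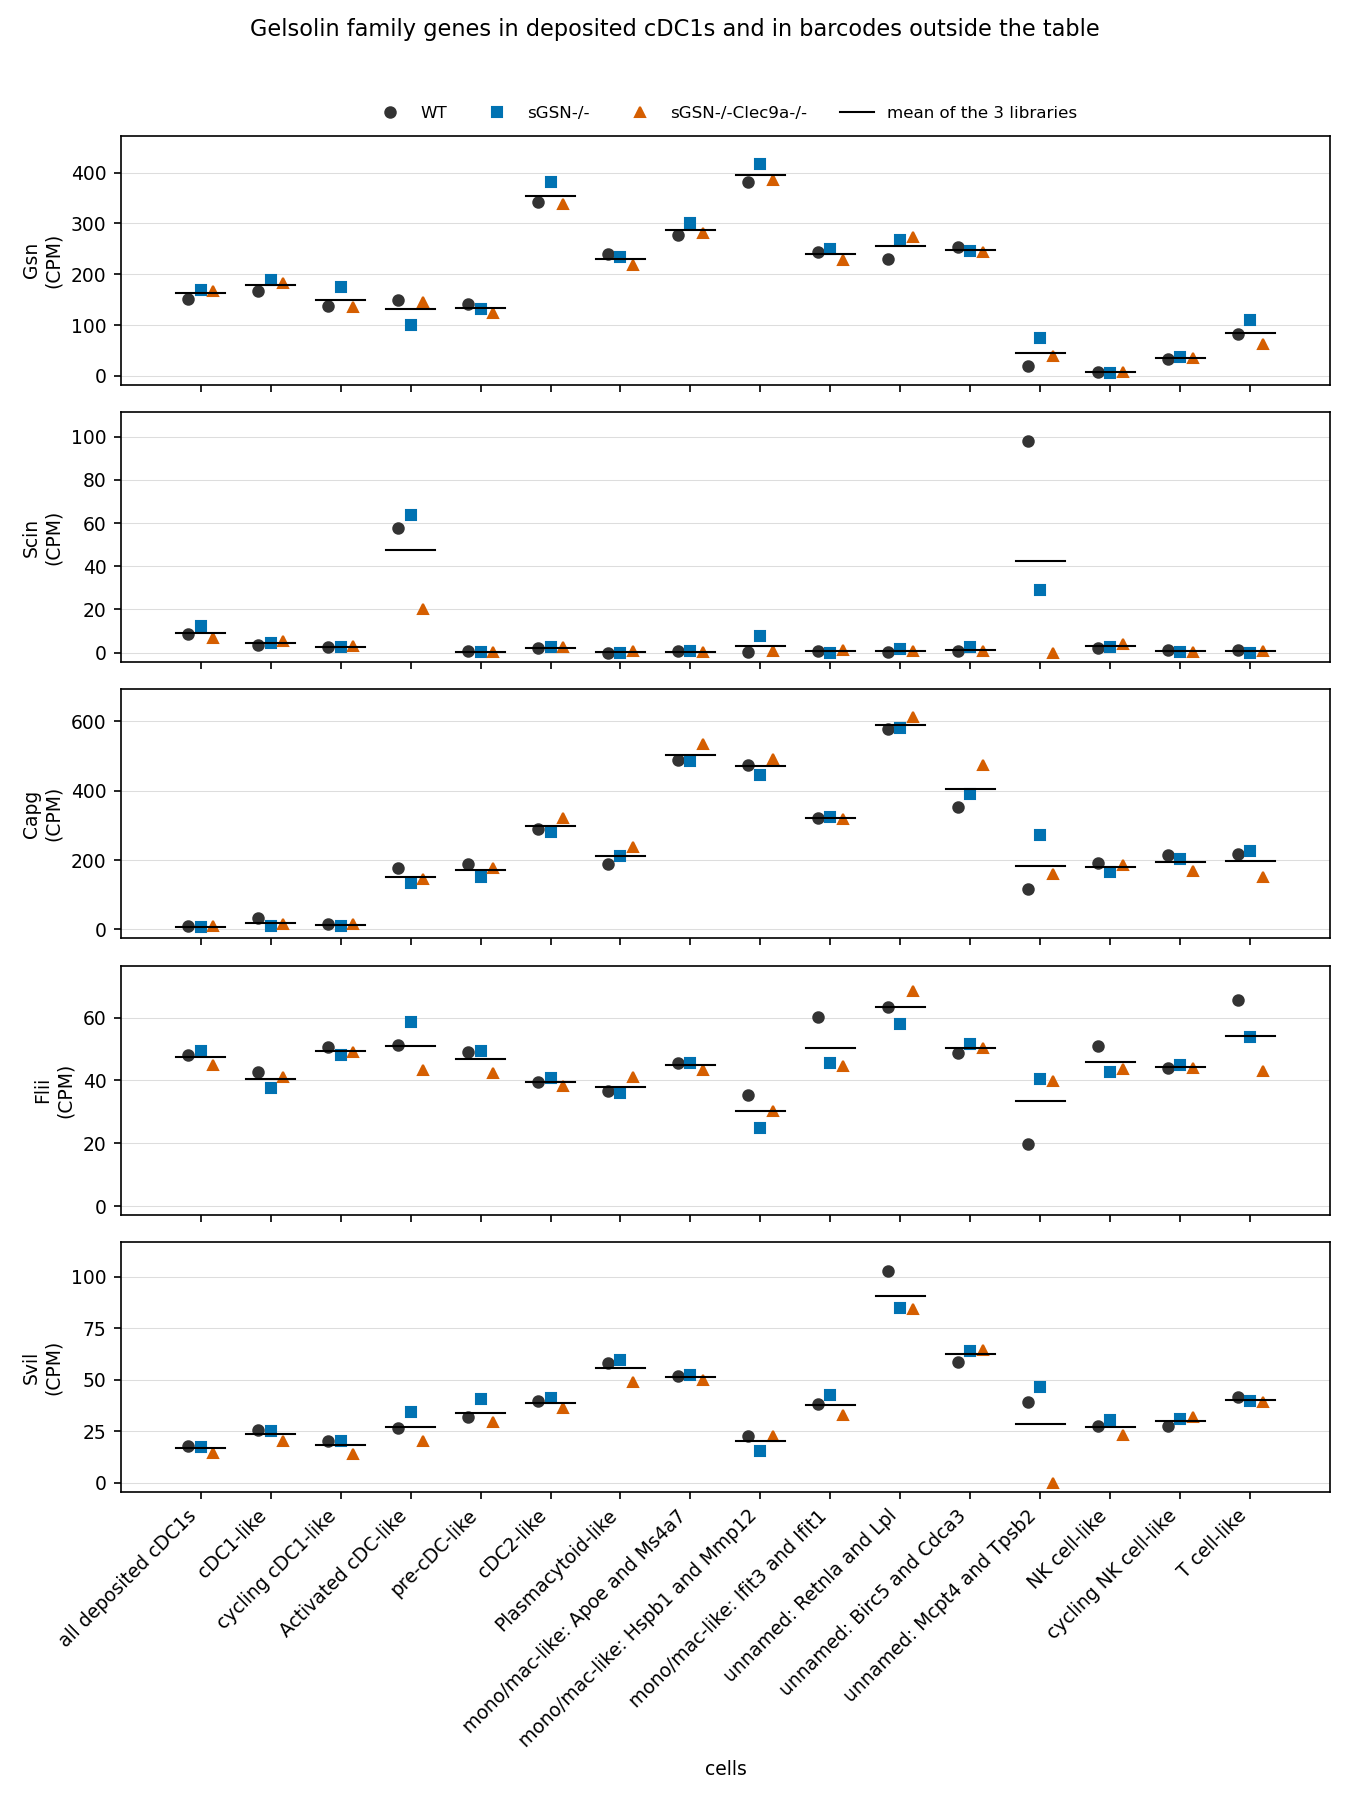
Level of each member, in CPM, in all deposited cDC1s and in the classes of barcodes outside the deposited table. Each point is 1 library, the bar is the mean of 3 libraries, and each panel has its own scale. Capg was lowest in the deposited cDC1s at 8.04 CPM, and Gsn was lowest in NK cell-like barcodes at 6.76 CPM.

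The cDC2-like barcodes differed from the deposited cDC1s in all members. Capg was higher by 5.18, at 291, 280 and 323 CPM against 8.87, 5.98 and 9.27 CPM. Gsn was higher by 1.10, at 343, 382 and 337 CPM against 152, 169 and 167 CPM. Svil was higher by 1.20, at 39.5, 40.9 and 36.2 CPM against 18.1, 17.4 and 14.4 CPM. In these 3 genes the libraries of the classes did not overlap, nor did they in the remaining members. How many of all genes separate in this way was not counted, here or in the other comparisons. Scin was lower by -2.04, at 1.94, 2.49 and 2.61 CPM against 8.42, 12.1 and 6.99, and Flii was lower by -0.29, at 39.6, 40.7 and 38.3 CPM against 48.2, 49.3 and 44.8.

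Here 63.1% of 12128 genes passed edgeR's threshold (32% higher and 31.2% lower). All 5 members passed, 3 higher and 2 lower, a share above that background but from few genes. The adjusted p was 9.7e-11 for Capg, 5.1e-08 for Svil, 6.7e-08 for Gsn, 7.6e-06 for Scin and 0.00064 for Flii, each in its direction in 3 of 3 libraries. With cluster 8 left out of the cDC1s, chosen after seeing the data, Scin differed by -0.81 (adjusted p = 0.0023), and with the barcodes led by Retnla and Lpl added to the cDC2-like class Flii was no longer called (-0.04, 0.66). The cDC2-like class carried 6 of 6 cDC2 markers (1536, 1670 and 1576 CPM, Mgl2 at 598) and 7 of 9 monocyte or macrophage markers at 10 CPM or more (765, 676 and 788 CPM, C1qb at 197, none at 0), and the part of the latter in the Capg level was not tested. The class was rebuilt from the counts and its name rests on these markers.

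Actin genes went both ways in the cDC2-like class: 6 of 20 severing genes were higher and 11 lower (median -0.35 against 0.00 over all genes), and 0 of 6 monomer genes higher and 5 lower (median -0.56). Bundling genes went both ways, 3 of 9 higher and 4 lower (median -0.12), with Actn1 at 3.51 and Marcks at -1.83. The filament-capping Tmod3 was higher by 0.94. Fscn1 was lower by -5.39, but with cluster 8 left out of the cDC1s it differed by 0.56 in the other direction (adjusted p = 0.31). Of 4 myosin II genes 1 was higher and 1 lower (median -0.06), and both Flii-binding genes were higher (median 0.33).

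Monocyte- or macrophage-like barcodes had more Capg, Svil and Gsn than the deposited cDC1s and less Scin and Flii. The class pools barcodes led by Apoe and Ms4a7, by Hspb1 and Mmp12, and by Ifit3 and Ifit1. Each carried 9 of 9 monocyte or macrophage and 6 of 6 cDC2 markers at 10 CPM or more, and the part of the latter was not tested. Flii stood at 50.2 ± 8.81 CPM in the Ifit3 and Ifit1 barcodes, and Svil at 20.3 ± 4.05 CPM in the Hspb1 and Mmp12 barcodes. The cDC1 sums are those used for the cDC2-like class. Capg at 470, 464 and 505 CPM was higher than in the cDC1s by 5.82, Svil at 47.2, 46.9 and 44.4 CPM by 1.40, and Gsn at 285, 307 and 289 CPM by 0.78. Scin at 0.590, 1.32 and 0.363 CPM was lower by -3.80, and Flii at 46.0, 43.2 and 41.6 CPM by -0.19. For Capg, Svil, Gsn and Scin the libraries of both classes did not overlap, while for Flii they did. Here 65.5% of 12279 genes passed (32.8% higher and 32.7% lower). All 5 members passed, 3 higher and 2 lower, again above the background but from few genes. The adjusted p was 5.4e-11 for Capg, 1.6e-08 for Svil, 1.1e-06 for Gsn, 1e-06 for Scin and 0.012 for Flii, each in 3 of 3 libraries.

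With cluster 8 left out of the cDC1s Scin differed by -2.56 (adjusted p = 1e-05). Flii was not called without the sGSN-/- library (-0.16, 0.094), by DESeq2 (-0.18, 0.0514), without scaling factors (-0.12, 0.16) or in thinned cells (-0.10, 0.37). Of 20 severing genes 6 were higher, with the depolymerising Dstn at 0.91, and 10 lower (median -0.20 against 0.00 over all genes). Of 6 monomer genes 0 were higher and 5 lower, with Tmsb10 at -1.56 (median -0.78). Of 9 bundling genes 4 were higher, with Actn1 at 1.98, and 3 lower (median -0.02). Fscn1 was lower by -4.37, but differed by 1.76 in the other direction with cluster 8 left out (adjusted p = 0.075). Of 4 myosin II genes 1 was higher and 2 lower (median -0.23), and 1 of 2 Flii-binding genes was higher (median 0.23).

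Pre-cDC-like barcodes, set against the early cDC1s, had more Capg and less Scin and Gsn. Capg stood at 189, 151 and 176 CPM against 19.6, 9.16 and 19.7 CPM, higher by 3.22 (SE 0.20, adjusted p = 1.7e-08). Scin, at 0.506 ± 0.109 CPM against 6.69, 6.40 and 7.68 CPM, was lower by -3.84 (SE 0.29, adjusted p = 1.6e-07). Gsn stood at 142, 132 and 125 CPM against 167, 196 and 197 CPM, lower by -0.69 (SE 0.09, adjusted p = 3e-05). All 3 differences held in 3 of 3 libraries, with no overlap. Svil stood at 31.8, 40.9 and 29.5 CPM against 22.3, 23.7 and 17 CPM, higher by 0.48 (SE 0.12, adjusted p = 0.0069, 3 of 3 libraries), and Flii differed by 0.01 (adjusted p = 0.94), or by -0.01 without the WT library and in thinned cells.

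In that comparison 40.3% of 10407 genes passed (20.9% higher and 19.4% lower), and of the 5 members 2 were higher, 2 lower and 1 not called. Without scaling factors the split of 2170 higher and 2021 lower became 3482 and 1196, with the median shifted by 0.20, and the directions of the 4 called members held. The class carried 4 of 4 pre-cDC markers (1179, 1572 and 1363 CPM, Cd7 at 582) and also 6 of 6 cDC2 markers (1265, 1197 and 1125 CPM, Cd209a at 688). Their 9 monocyte or macrophage markers summed to 280, 161 and 260 CPM, with 6 at 10 CPM or more and Csf1r at 102 CPM, lowest in the sGSN-/- library as Capg was. Their 6 plasmacytoid markers summed to 1009, 1378 and 1240 CPM, with 4 at 10 CPM or more and Bst2 at 1047 CPM. None of these markers was at 0, and their part in these results was not tested. Marcksl1 was higher by 1.24 and Tmod3 by 0.82, while the monomer-sequestering Tmsb4x was lower by -1.16 and Marcks by -1.01. Of 20 severing genes 4 were higher and 4 lower (median -0.02 against 0.01 over all genes), of 5 monomer genes 0 and 3 (median -0.29), of 8 bundling genes 2 and 4 (median -0.13), of 4 myosin II genes 1 and 1 (median -0.09), and of 2 Flii-binding genes 1 and 0 (median 0.24).

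**Figure D4:**
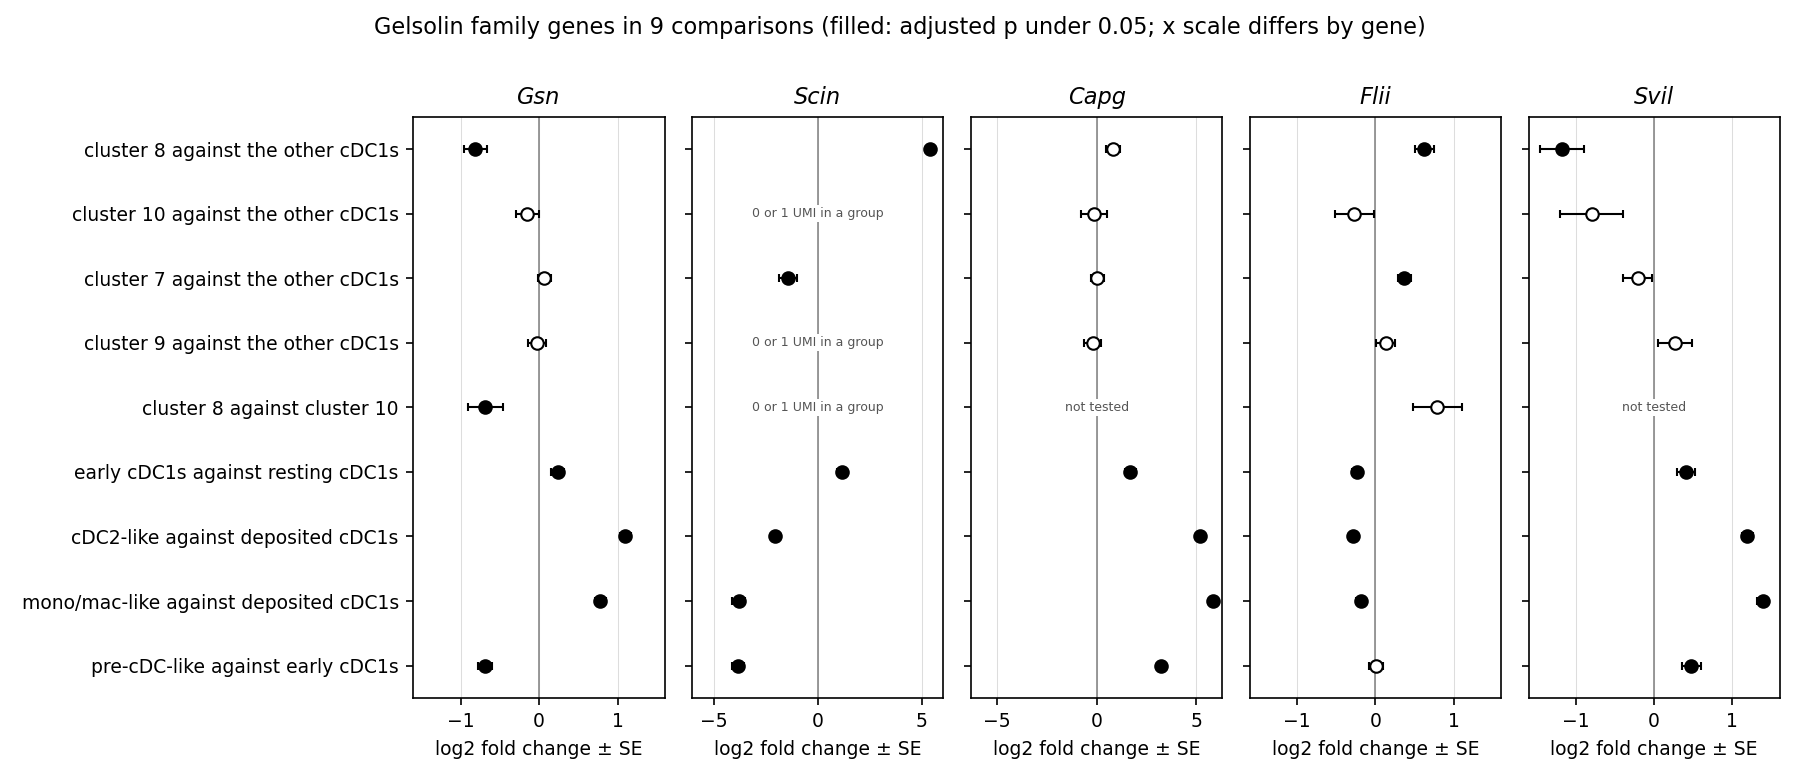
Log2 fold change with its SE for each member in the 9 comparisons. Filled points have an adjusted p under 0.05, open points do not, each panel has its own scale, and Scin is left out where a group holds 0 or 1 UMI. Scin reached 5.42 in cluster 8 and Capg 5.82 in monocyte- or macrophage-like barcodes.

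Over the 9 comparisons the members were called 28 times and tested without a call 15 times, where 7.5% to 65.5% of all genes passed per comparison. The comparisons reuse the same cDC1 sums, so that the calls are not independent. Of the 28 calls 16 kept their direction and their side of the threshold under all alternatives tried. Whether a difference in 1 cluster or class differs in size from that in another was not tested. Gene positions on GRCm38 are chr12:40059769-40134228 on the minus strand for Scin, chr6:72544391-72562983 on the plus strand for Capg, chr11:60714123-60727263 on the minus strand for Flii and chr18:4920540-5119299 on the plus strand for Svil. Flii overlaps Llgl1 on the opposite strand, so that where the counting did not use strand their reads cannot be told apart. The Ensembl identifiers are ENSMUSG00000026879 (Gsn), ENSMUSG00000002565 (Scin), ENSMUSG00000056737 (Capg), ENSMUSG00000002812 (Flii) and ENSMUSG00000024236 (Svil).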

How the data were processed

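The matrices hold counts of UMIs, not normalised by the authors, made with Cell Ranger 6.0.1 (matrix header) on mm10 (GRCm38), and a table of cDC1s with library, cluster and UMI count from Seurat (4.0.0 in the labels, where the methods of the paper give another version). The kit chemistry and the transcript end it reads are not given in the sources used here. Counts were summed per library and cluster or class and tested with edgeR 4.0.16 in R 4.3.3 (TMM, filterByExpr, quasi-likelihood F-test, Benjamini-Hochberg at 0.05), after the code had been tested on simulated data. Alternatives were DESeq2 1.42.0, the library as a block, no TMM, no filter, each library left out, cells thinned to 3900 UMIs (288 cDC1s too shallow) and doublets left out. All barcodes, deposited cDC1s among them, with at least 200 genes and at most 16.7% mitochondrial UMIs (28855 of 30209 kept), went through Leiden clustering in Python 3.11.15 (leidenalg 0.10.2, scanpy 1.11.5, 2000 variable genes, 50 components, 20 neighbours, resolution 1, or 0.5 as an alternative). A cluster took a name from at least 3 markers, by a rule set after seeing the data, and 2569 shallow and 894 doublet-rich barcodes stayed apart. Scrublet's automatic threshold called 466, 0 and 0 barcodes, so the top 6% of scores per library (766, 490 and 556) were taken as doublets. Ratios carry exact conditional binomial intervals, shares exact Clopper-Pearson intervals, and folds against a group at 0 use a floor of 3 counts over the group, all for counting error only. Sums of 1 library come from the same mice, which pairs them by design. Their correlations ran from 0.149 to 0.236 for early against resting cDC1s and from -0.0229 to 0.0839 for cluster 8 against cluster 10. Named were all members and, from all actin lists as 1 set, the 2 largest and 2 smallest called fold changes per comparison. Members, lists and motifs were chosen with earlier results of these data known. Transcripts are those of the GENCODE annotation on GRCm38.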

Additional observations from a re-analysis of the deposited data

Results flagged for a closer look

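Scin gave 10 UMIs in 4 of 45 unnamed barcodes led by Mcpt4 and Tpsb2, genes of mast cells, at 98.2, 28.9 and 0 CPM, and 11 UMIs in the barcodes below the filters, both outside the comparisons above. The ratio of Gsn in the sGSN-/- to the WT library was 1.23 in cluster 2 and 0.669 in activated cDC-like barcodes, with counting intervals on opposite sides of 1. The ratio of Gsn in the sGSN-/-Clec9a-/- to the sGSN-/- library was 1.46 in activated cDC-like and 0.882 in cDC2-like barcodes, again on opposite sides. The interval of the first Gsn ratio lay above 1 in 8 clusters or classes and below 1 in 1. That of the second lay above 1 in 1 and below 1 in 4. In both, activated cDC-like barcodes stood alone on their side. For Svil the ratio of sGSN-/- to WT was 1.28 in pre-cDC-like barcodes and 0.54 in cluster 7. These pairs were found among 19 clusters and classes, rest on 1 library per genotype, and the differences between the classes were not tested.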

How the results depend on the processing

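Of 451 values of members under alternatives, 390 kept their direction and side of the threshold, 37 lost and 8 gained a call and 16 turned direction. Of 94 counts of genes 75 stayed within 1.5 times, of 60 genotype ratios 50 stayed within their intervals, and of 352 values of other named genes 327 held. Shares of cells moved with depth in 28 of 30 thinned values. Among members the library block changed the call of Capg in cluster 8 only (0.89). The cause of the other changes was not tested. Fitted Scin values in clusters 9 and 10 rest on 0 or 1 UMI and measure no fold.

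In thinned cells the counts were 2987 (cluster 8), 486 (cluster 10), 768 (cluster 7), 355 (cluster 9), 739 (cluster 8 against 10), 2707 (early) and 2674 (pre-cDC-like). Cluster 8 then gave Capg 1.35, Flii 0.28 and Svil -1.28, cluster 7 Scin -1.36 and Flii 0.29, cluster 9 Scin -8.19 and cluster 8 against 10 Gsn -0.70. Early cDC1s gave Gsn 0.08, Flii -0.27 and Svil 0.39, and Flii was -0.10 in monocyte- or macrophage-like and -0.01 in pre-cDC-like barcodes. Thinned genotype ratios were 0.917 for Gsn and, for Capg, 1.04 and 1.38 against WT. DESeq2 gave Capg 0.84 in cluster 8, Scin -3.91 in cluster 10, Gsn -0.68 for cluster 8 against 10, and Flii -0.23 in early and -0.18 in monocyte- or macrophage-like cells. Without doublets Capg was 0.96 in cluster 8 and 0.10 in cluster 10, and Scin -1.43 in cluster 7. The Ccr7 and Fscn1 gate gave Svil -0.76, and the Cxcl9 and Cxcl10 gate Gsn 0.13, Capg 0.18 and Flii 0.20. Without the filter Scin was -9.91 in cluster 10, Capg -0.01 in cluster 7, and Gsn -0.56 and Flii 0.91 for cluster 8 against 10. Without TMM Gsn was -0.05, Capg -0.09 and Flii 0.25 in cluster 7, and Flii -0.12 in monocyte- or macrophage-like cells. Cluster 1 alone gave Capg 0.37, and the barcodes led by Retnla and Lpl, when added, Flii -0.04. With cluster 8 left out Scin was -0.15 in cluster 7, and Fscn1 0.56 in cDC2-like and 1.76 in monocyte- or macrophage-like cells. With clusters weighted equally the ratios were 0.929 for Gsn, 0.927 and 0.986 for Scin, 0.883 and 1.12 for Capg, 0.906 for Flii and 0.661 for Svil.

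With 1 library left out, the counts ran from 2989 to 4629 (cluster 8), 318 to 357 (cluster 10), 909 to 1128 (cluster 7), 342 to 510 (cluster 9), 939 to 1697 (cluster 8 against 10) and 2579 to 3384 (early). Capg ran from 0.72 to 0.95 and Svil from -1.40 to -1.01 in cluster 8, Capg from -0.49 to 0.08 and Flii from -0.50 to 0.06 in cluster 10. In cluster 7 Scin ran from -2.12 to -0.99, Capg from -0.21 to 0.43, Flii from 0.33 to 0.45 and Svil from -0.43 to 0.04. In cluster 9 Gsn ran from -0.08 to 0.06 and Scin from -9.79 to -3.75, and for cluster 8 against 10 Gsn from -0.68 to -0.60. In early cDC1s Gsn ran from 0.19 to 0.28, Flii from -0.26 to -0.21 and Svil from 0.33 to 0.46. Flii ran from -0.22 to -0.16 in monocyte- or macrophage-like and from -0.01 to 0.03 in pre-cDC-like barcodes.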
